A study of Mus musculus with 47 samples.

Results

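The mouse genes named Zfp with a number encode zinc finger proteins, and 73 of them were well measured in these embryonic stem (ES) cell cultures. They were chosen by symbol and by mean level alone, so their levels below are a description. A gene was kept when at least 1 of its probes had a mean intensity over 100 across 39 arrays, and its brightest probe stood for it. Of 279 Zfp genes on the array 73 passed, and Zfp42 was set aside. Among all 16593 genes with a symbol, 5084 passed the same limit, and these 5084 serve as the background for every count below. Just inside the limit lay Zfp280b at 101.5 and Zfp94 at 100.8, and just outside lay Zfp157 at 94.1 and Zfp185 at 91.9. The rule used no difference between groups, but a gene near the limit can owe its place to a group in which it was high. Without the 3XKO arrays the mean was at or under 100 for 4 genes (Zfp951, Zfp94, Zfp280b and Zfp607a), without the WT arrays for Zfp94 and without the 4XKO arrays for Zfp280b. These genes stay in the counts below, so a line's count can include a gene that passed the limit through that line.

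Most proteins of this family carry C2H2 zinc fingers, in which cysteine and histidine residues hold a zinc ion and the folded finger reads a short stretch of DNA. Many also carry a KRAB domain, which recruits the corepressor Trim28 and, through it, histone methylation and heterochromatin, and in ES cells such proteins are best known for silencing retroelements and protecting imprints. The symbol also covers unrelated proteins: Zfp36 and Zfp36l1 have CCCH fingers that bind AU-rich elements in messenger RNA and bring in the CCR4-NOT deadenylase.

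Expression was measured on Illumina bead arrays in 4 ES cell lines. These were the wild type (WT), KO (Tcf7l1-/-), 3XKO (Tcf7-/- Tcf7l2-/- Lef1-/-) and 4XKO (Tcf7-/- Tcf7l1-/- Tcf7l2-/- Lef1-/-), which lack some or all of the TCF/LEF proteins that bind DNA with beta-catenin in Wnt signalling. All were grown in N2B27. ESC cultures received 1 uM PD0325901, a MEK inhibitor, with 3 uM CHIR99021, a Gsk3 inhibitor that stabilises beta-catenin, and 1000 U/mL LIF. EpiLC cultures, a model of the early postimplantation epiblast, received 12 ng/mL Fgf2. EpiLC+CH cultures had 3 days of Fgf2 and then 3 uM CHIR99021 for 24 hours, and ContinuedCH cultures, of WT alone, had Fgf2 with 3 uM CHIR99021. Each of these 13 groups held 3 arrays. A separately normalized set of 8 WT arrays held LIF+PD (3 arrays), LIF+PD+24hrCH (3 arrays), LIF+CHIR (1 array) and PD+CHIR (1 array). For LIF+PD+24hrCH the sample titles name 24 hours, whereas the protocol in the labels describes 48 hours of CHIR99021 after LIF+PD. Each genotype is represented by 1 line, so a lost factor and any other difference between lines cannot be told apart. The labels give no time for untreated EpiLC, so CHIR99021 and days of culture cannot be told apart either.

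Each of the 39 arrays correlated best with an array of its own group over the bright probes. Pou5f1 (1475 to 2939) and Sall4 (2077 to 4245) were bright in all 13 group means, while Sox1, Pax6, Gata4, Foxa2, Elf5 and Col1a1 stayed under 7. Fgf5, a marker of EpiLC, was 880.5 in WT EpiLC and 687 in 3XKO EpiLC, but only 3.67 in KO and 35.9 in 4XKO EpiLC, with a background limit of 13.6 on these arrays. The background limit is the size of the most negative deposited intensity in a set of arrays. It is a rough guide and not a detection limit. The Tcf7l1 probe read 1701, 1476 and 1321 in WT ESC, 184, 217 and 181 in KO ESC and 743, 662 and 638 in 4XKO ESC. It was lower in both lines without Tcf7l1 but kept a signal there, and the position of the probe relative to the deleted part was not analysed here. These are bulk cultures, so fewer cells expressing a gene and less RNA per cell cannot be told apart.

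Mean intensities over the 39 arrays, the values the choice rests on, had a median of 246. Of the 73 genes 44 lay between 100 and 300, and 4 exceeded 1000. Zfp36l1 was the brightest at 3820, followed by Zfp985 at 1480.5, Zfp277 at 1465 and Zfp64 at 1187. The limit was passed in all 13 groups by 51 genes, and 22 were at or under it in at least 1 group. The ratio of the highest to the lowest group mean had a median of 2.01, stayed under 2 for 35 genes and exceeded 4 for 8, led by Zfp819 and Zfp951 (both 9.19), Zfp36 (7.12) and Zfp296 (7.03). Chromosome 7, which in the mouse carries several clusters of KRAB zinc finger genes, held 17 of the 73 (23.3%), against 382 of the 5081 placed genes over 100 (7.52%).

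**Figure D1:**
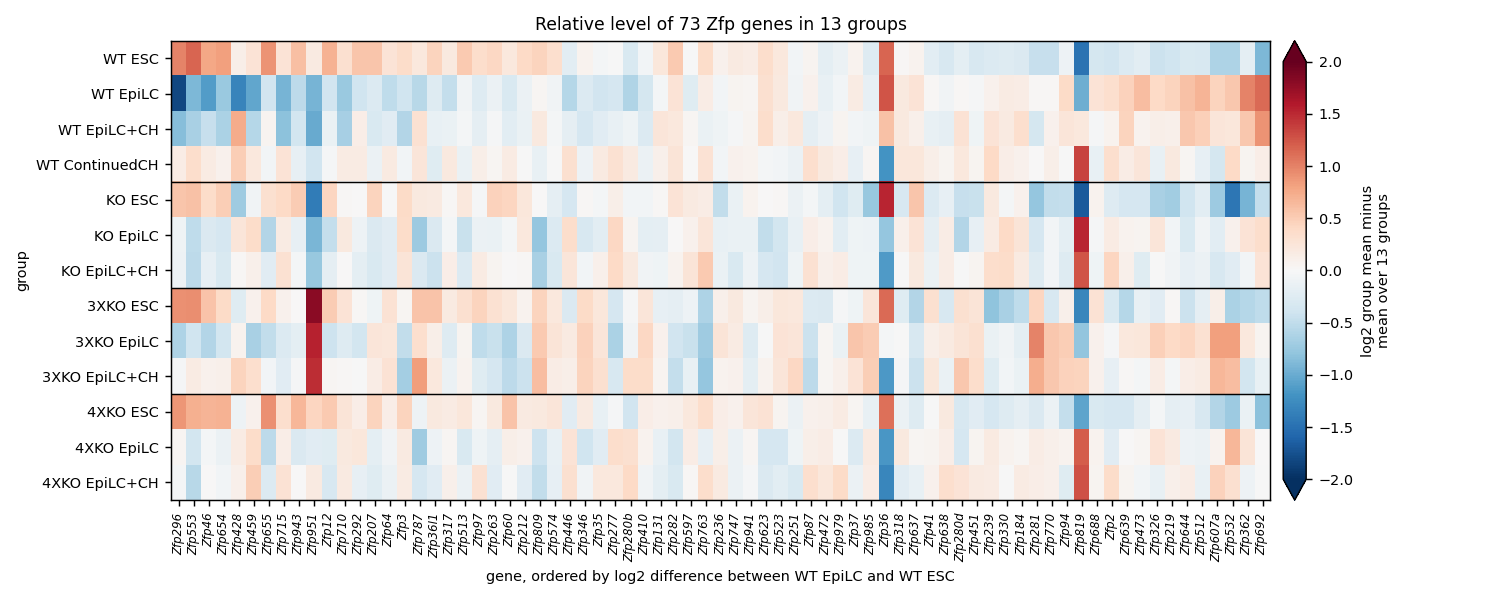
Relative level of the 73 Zfp genes (columns, ordered by their difference between WT EpiLC and WT ESC) in 13 groups (rows), as the log2 group mean minus the gene's mean over the groups. The columns with the widest range of colour are Zfp819, Zfp951, Zfp36 and Zfp296, whose highest group means are 7.03 to 9.19 times their lowest.

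The first question was how the family moved when naive WT cells were taken from ESC to EpiLC conditions. Between WT ESC and WT EpiLC, 19 Zfp genes rose and 31 fell (limma, p adjusted by Benjamini-Hochberg over all 25697 probes, threshold 0.05). Among all genes over 100, 34.9% rose and 31.5% fell, so about as many Zfp genes as others changed while their balance lay on the side of falling. The median log2 difference was -0.14 for the 73 genes and 0.04 for all genes over 100. The genes that rose include Zfp94, which passed the limit through the WT arrays.

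Zfp296, a factor of ES cells known from reprogramming to pluripotency, fell furthest. Its intensity was 1110.0, 972 and 1003 on the WT ESC arrays and 153, 146 and 140.1 on the WT EpiLC arrays. The groups were far apart, and the gene stood 7.02-fold lower in EpiLC (log2 difference -2.81 ± 0.08 SE, adjusted p = 1.21e-21). Zfp553 went from 339.8, 285 and 317 to 59.8, 79.2 and 88.1, a 4.19-fold fall. Zfp46 went from 318, 278 and 289 to 88.8, 78.5 and 72.0, a 3.7-fold fall. In each case the lowest ESC array lay well above the highest EpiLC array. The next largest falls were those of Zfp654 (2.96-fold), Zfp428 (2.71-fold), Zfp459 (2.51-fold), Zfp655 (2.42-fold) and Zfp715 (2.32-fold), followed by Zfp943, Zfp951, Zfp12 and Zfp710 (2.1 to 2.19-fold).

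Among the genes that rose, Zfp692, a substrate of AMP-activated kinase known to repress gluconeogenic genes, had the largest change. It read 107, 97.6 and 81.4 in WT ESC and 360.0, 426 and 374 in WT EpiLC, 4.07-fold higher (adjusted p = 1.09e-12). Zfp362 rose 2.27-fold and Zfp607a 2.16-fold. Zfp532 rose 2.24-fold from 491 ± 22.8 to 1103 ± 83.5 (mean ± SD, n = 3). Zfp512 (1.99-fold), Zfp644, a partner of the G9a and GLP methyltransferases (1.85-fold), Zfp219, a transcriptional repressor (1.79-fold), and Zfp326, a subunit of the DBIRD complex that couples elongation to splicing (1.78-fold), rose as well. Zfp473, Zfp639, Zfp2 and Zfp688 rose by 1.53 to 1.75-fold, but another probe of Zfp2 was called in the opposite direction.

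**Figure D2:**
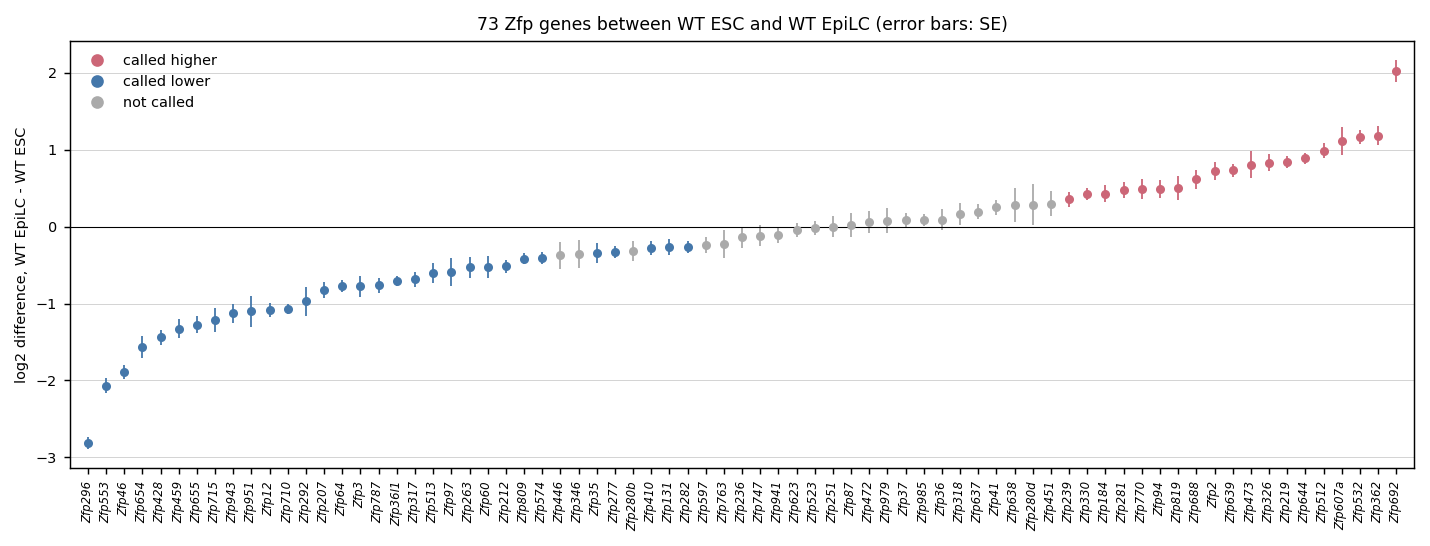
Log2 difference between WT EpiLC and WT ESC (vertical axis, points with SE) for each of the 73 Zfp genes (horizontal axis), coloured by whether the gene was called. Zfp296, at -2.81, lies below all others and Zfp692, at 2.02, above all others.

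By role, the falls and rises were mixed. The role lists also hold Zfp genes under the limit of 100, and a gene counts as measured when it has a probe. The lists were drawn up with earlier results of these data known. Of the 3 measured genes of the CCCH mRNA decay family, 1 changed: Zfp36l1, the brightest gene of the set, went from 5424, 4747 and 5063 to 2913, 3038 and 3409.7, a 1.63-fold fall. Zfp36 itself did not pass the test, with 199, 215 and 177 in WT ESC and 208, 216 and 204 in WT EpiLC (log2 difference 0.09, 95% interval -0.19 to 0.38). Of 8 measured genes listed for imprint or retroelement silencing, 1 rose and 2 fell. The falls were those of Zfp459 and of Zfp809, which silences murine leukaemia viruses (1.33-fold). The rise was that of Zfp819, a KRAB zinc finger gene linked to retroelement silencing in ES cells. It was low in both states, at 50.6, 41.6 and 53.7 and 73.5, 58.0 and 75.6. Its call (1.42-fold, adjusted p = 0.0136) was lost when the spread was taken from these 6 arrays alone (adjusted p = 0.0916) and when any of 3 single arrays was left out (adjusted p up to 0.0975). The calls of Zfp131 and Zfp410 were likewise lost without single arrays (adjusted p up to 0.175 and 0.0762).

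The counts of the role lists stand beside the 34.9% of genes over 100 that rose and the 31.5% that fell. These shares cover only genes over 100, whereas the role lists can also hold dimmer genes, so lists and shares are not like for like. Of 11 measured genes listed as pluripotency-associated, 3 rose and 3 fell, with a median log2 difference of -0.36. Zfp281, a regulator of the exit from naive pluripotency, rose 1.4-fold. Of 10 chromatin and corepressor partners 2 rose and 2 fell. Of 14 genes of RNA, ribosome and spindle function 3 rose and 2 fell, among them Zfp207, a spindle assembly factor (1.77-fold lower), and Zfp277, a partner of the ribosomal protein Rps2 (1.26-fold lower). Of 7 developmental repressors 2 rose and 0 fell. The genes that KRAB proteins work through were measured too: of 17, 5 rose and 2 fell, with Trim28 changing by -0.19 ± 0.07 on the log2 scale (adjusted p = 0.0424) and Setdb1, the methyltransferase it recruits, by -0.76 ± 0.09 (adjusted p = 2.88e-08). Of 12 CCR4-NOT and Tob genes 5 fell and 0 rose.

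The promoters of 4 chromosome 7 genes on which the later comparisons turn are shown with what they hold, because these genes had the widest or most contrasting patterns. The windows run from 250 bases before to 50 bases after the RefSeq start in GRCm38.p6. Capitals mark the octamer ATGCAAAT (known as a POU factor motif), the TCF/LEF core CTTTGA or the STAT motif TTCNNNGAA, each searched on both strands. Zfp296 lies at chr7:19577037-19577336 and Zfp428 at chr7:24506837-24507136, both on the plus strand, Zfp819 at chr7:43606919-43607218 on the plus strand and Zfp36 at chr7:28379179-28379478 on the minus strand.
Zfp296: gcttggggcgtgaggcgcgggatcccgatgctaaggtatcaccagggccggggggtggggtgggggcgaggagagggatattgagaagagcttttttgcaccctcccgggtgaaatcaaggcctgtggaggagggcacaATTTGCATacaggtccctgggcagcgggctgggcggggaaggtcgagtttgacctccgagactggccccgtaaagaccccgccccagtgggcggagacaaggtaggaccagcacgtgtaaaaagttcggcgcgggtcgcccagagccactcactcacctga
Zfp428: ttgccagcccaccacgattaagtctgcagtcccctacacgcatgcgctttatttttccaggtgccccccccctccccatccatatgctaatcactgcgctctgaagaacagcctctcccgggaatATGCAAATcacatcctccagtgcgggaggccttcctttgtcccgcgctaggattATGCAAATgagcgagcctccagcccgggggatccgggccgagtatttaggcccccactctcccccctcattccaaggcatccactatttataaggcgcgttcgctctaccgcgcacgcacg
Zfp819: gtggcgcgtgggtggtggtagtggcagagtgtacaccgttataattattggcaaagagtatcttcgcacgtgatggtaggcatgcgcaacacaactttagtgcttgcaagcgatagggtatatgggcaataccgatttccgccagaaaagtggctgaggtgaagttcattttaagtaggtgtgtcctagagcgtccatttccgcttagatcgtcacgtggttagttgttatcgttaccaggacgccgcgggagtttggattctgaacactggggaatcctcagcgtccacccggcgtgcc
Zfp36: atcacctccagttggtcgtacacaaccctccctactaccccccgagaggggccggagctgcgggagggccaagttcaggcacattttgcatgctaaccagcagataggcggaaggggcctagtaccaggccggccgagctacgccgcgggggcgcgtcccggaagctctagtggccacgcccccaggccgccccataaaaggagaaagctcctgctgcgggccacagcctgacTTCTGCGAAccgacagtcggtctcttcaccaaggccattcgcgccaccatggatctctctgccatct

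The octamer occurred in the Zfp296 window 111 bases before the start, on the minus strand, and in the Zfp428 window at 125 and 71 bases before the start, on the plus strand. It was found in 4 of the 61 Zfp genes with a window (Zfp207, Zfp263, Zfp296 and Zfp428), in 5.19% of their 77 windows and in 1.74% of all 32851 windows. The TCF/LEF core was in none of the 4 windows shown, in 7 of the 61 genes, in 11.7% of the family's windows and in 16% of all. The STAT motif was in the Zfp36 window and in 11 of the 61 genes, or 16.9% of the family's windows and 8.3% of all. A match describes these letters only.

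The next question was what Gsk3 inhibition did to EpiLC. In WT cells, 10 Zfp genes were higher and 4 lower in EpiLC+CH than in EpiLC, against 8.24% and 7.95% of genes over 100. Zfp428 had the largest change. It read 107, 97.9 and 79.9 in WT EpiLC and 380.2, 389 and 419 in WT EpiLC+CH, 4.2-fold higher (log2 difference 2.07 ± 0.10, adjusted p = 5.69e-15), and its level after CHIR99021 lay above the 256 ± 11.6 of WT ESC. Zfp819 rose from the values above to 146, 138 and 185 (2.26-fold, adjusted p = 4.74e-06). Zfp296 rose to 284, 283 and 295 (1.96-fold), which was still far under its ESC level. Zfp787 rose 1.82-fold and Zfp46 1.58-fold.

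The smaller rises were those of Zfp280b, Zfp459, Zfp655, Zfp317 and Zfp64 (1.22 to 1.44-fold). Zfp36 fell to 124, 148 and 124, 1.59-fold under WT EpiLC (adjusted p = 0.00176), and Zfp362, Zfp281 and Zfp219 fell by 1.27 to 1.36-fold. Of these 14 calls, 7 were lost with the spread of these 6 arrays alone, and the same 7 (Zfp280b, Zfp459, Zfp655, Zfp317, Zfp64, Zfp362 and Zfp281) lost the threshold when some single array was left out, with adjusted p up to 0.2. None of the 17 KRAB cofactors and none of the 12 CCR4-NOT and Tob genes was called here in either direction. Among genes over 100 the shares were 8.24% higher and 7.95% lower, so few calls would fall in lists of this size.

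In 3XKO cells, 11 Zfp genes rose and 4 fell with CHIR99021, against 8.06% and 6.9% of genes over 100. The WT and 3XKO responses share no array. Of the genes that rose, 7 were common to both (Zfp296, Zfp428, Zfp459, Zfp46, Zfp655, Zfp787 and Zfp819), which is 70.0% of the WT calls and 63.6% of the 3XKO calls. Over all genes over 100 the shared rises were 58.5% and 59.8% of the calls. Of those that fell, 3 were common (Zfp36, Zfp219 and Zfp362), 75% of each, against 54.0% and 62.1% over all genes over 100. Zfp819 went from 62.3, 75.4 and 98.9 to 163, 229 and 162 in 3XKO cells (2.35-fold), and Zfp36 from 94.0, 90.6 and 72.1 to 47.3, 37.6 and 34.7 (2.15-fold lower). With the spread of the 6 arrays alone, 3 of these 15 calls remained, and those of Zfp819 (adjusted p = 0.111) and Zfp36 (adjusted p = 0.0678) were not among them.

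In the lines without Tcf7l1 few of all genes over 100 responded, and few Zfp genes with them. In KO cells 1 rose (Zfp787) and 0 fell, against 1.02% and 1.77% of genes over 100. In 4XKO cells 2 rose (Zfp2 and Zfp787) and 2 fell (Zfp326 and Zfp212), against 2.18% and 3.66%. The KO call and 3 of the 4XKO calls depended on the setting: 0 and 1 remained with the spread of the compared arrays alone. In KO 0 remained without KO EpiLC replicate 1 or 2 or without KO EpiLC+CH replicate 1 or 3. In 4XKO 1 remained without 4XKO EpiLC replicate 2 or 3 or 4XKO EpiLC+CH replicate 2, and 2 without 4XKO EpiLC replicate 1 or 4XKO EpiLC+CH replicate 3. In KO cells Zfp428 read 274, 269.6 and 294 before and 242, 243 and 233 after CHIR99021 (log2 difference -0.22, 95% interval -0.43 to -0.02). Zfp296 read 492, 496 and 482 before and 485, 498 and 471 after (log2 difference -0.02, 95% interval -0.18 to 0.14).

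The difference between responses was tested directly, and these differences share the WT arrays. Relative to WT, the change was more positive for 0 Zfp genes and more negative for 5 in KO (1.97% and 3.76% of genes over 100). The counts were 0 and 1 in 3XKO (0.944% and 1%), and 1 and 6 in 4XKO (4.07% and 6.63%). A more positive difference can also be a smaller fall, so these are not counts of stronger and weaker responses. Zfp428 responded less in every knockout line, by -2.29 ± 0.14 in KO, -1.70 ± 0.14 in 3XKO and -2.13 ± 0.14 in 4XKO on the log2 scale (adjusted p = 4.79e-12, 5.59e-08 and 1.61e-11). Zfp819 (-1.43 and -1.11) and Zfp296 (-0.99 and -1.05) responded less in KO and 4XKO. For 3XKO the difference in the Zfp819 response was 0.06, with a 95% interval of -0.40 to 0.51. The lines did not start level: untreated EpiLC of the knockout lines already held more Zfp428 and Zfp296 than WT EpiLC, as described next.

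**Figure D3:**
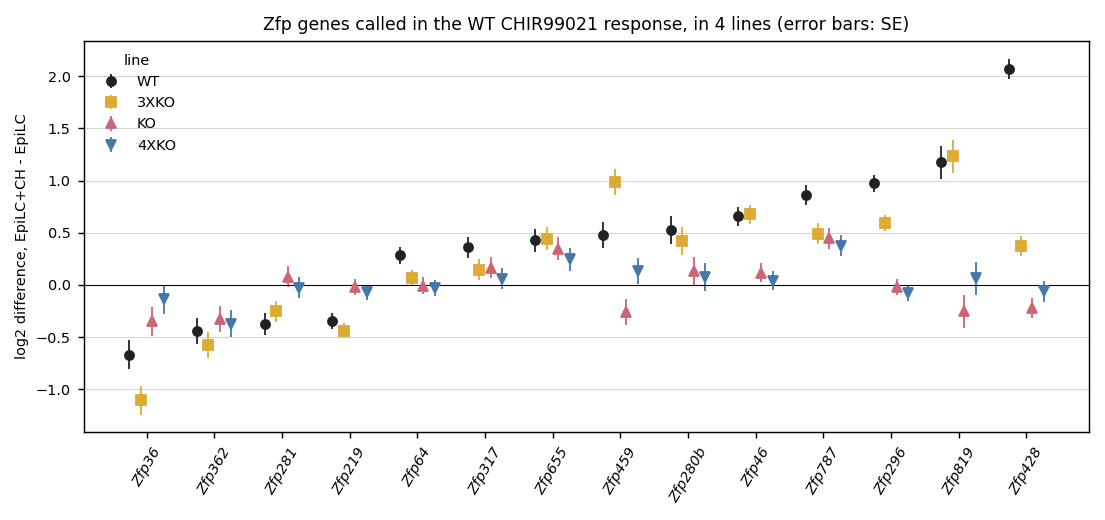
Log2 difference between EpiLC+CH and EpiLC (vertical axis, points with SE) in 4 lines for the 14 Zfp genes called in WT (horizontal axis). KO and 4XKO points lie between -0.25 and 0.07 for Zfp296, Zfp819 and Zfp428, where WT stands at 0.97, 1.18 and 2.07.

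Next, each knockout line was set against WT within a condition. In EpiLC, KO cells had 18 Zfp genes higher and 17 lower than WT (26.6% and 23.5% of genes over 100), 3XKO cells 24 and 15 (23.2% and 21.3%), and 4XKO cells 21 and 15 (24.4% and 20.9%). These comparisons share the WT EpiLC arrays, so their values are given side by side without an overlap. The higher genes include Zfp951 and Zfp280b in 3XKO and Zfp280b in 4XKO, which passed the limit through the arrays of those lines. The lower genes in KO and 4XKO include Zfp94, which passed the limit through the WT arrays. Zfp819 had the largest rise in KO and 4XKO. It read 344, 400.3 and 422 in KO and 326, 286 and 331 in 4XKO EpiLC, 5.65-fold and 4.58-fold over WT (adjusted p = 3.52e-13 and 6.05e-12). In 3XKO EpiLC it read 62.3, 75.4 and 98.9 and was not called (log2 difference 0.18, 95% interval -0.15 to 0.50).

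Zfp296 stood at 490.4 ± 7.11 in KO, 338 ± 20.0 in 3XKO and 534 ± 25.5 in 4XKO EpiLC (mean ± SD, n = 3), which was 3.35-fold, 2.31-fold and 3.65-fold over WT EpiLC, and none of these arrays overlapped the WT ones. Zfp428 was 2.96-fold, 2.62-fold and 2.8-fold over WT in the same order. Zfp459 (2.66-fold and 2.68-fold), Zfp715 (2.12-fold and 2.09-fold), Zfp710 (1.92-fold and 1.93-fold) and Zfp46 (1.78-fold and 2.12-fold) were higher in KO and 4XKO EpiLC. In 3XKO EpiLC they were higher too, Zfp459 1.32-fold, Zfp715 1.57-fold, Zfp710 1.41-fold and Zfp46 1.44-fold. The 3XKO call of Zfp459 was lost with the spread of the compared arrays alone (adjusted p = 0.179) and without WT EpiLC replicate 1 or 2 or 3XKO EpiLC replicate 2.

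Zfp36 had the largest difference in the other direction. It read 63.9, 45.0 and 46.1 in KO, 94.0, 90.6 and 72.1 in 3XKO and 38.3, 43.5 and 35.3 in 4XKO EpiLC, 4.1-fold, 2.46-fold and 5.38-fold under WT EpiLC (adjusted p = 1.88e-12, 3.15e-08 and 4.66e-14). In ESC of the same lines it was 252 ± 21.4, 193 ± 20.5 and 189 ± 32.8, against 197 ± 18.9 in WT ESC. Zfp692 was lower in all 3 lines (1.72-fold, 2.1-fold and 2.18-fold), as were Zfp512 (1.68, 1.3 and 1.73-fold) and Zfp362 (1.63, 1.72 and 1.65-fold). The Zfp512 call in 3XKO was lost with the spread of the compared arrays alone (adjusted p = 0.0753). Zfp644 (1.84-fold and 1.6-fold) and Zfp623 (1.75-fold and 1.58-fold) were lower in KO and 4XKO. In 3XKO, Zfp623 was 1.26-fold lower and Zfp644 was not called (log2 difference -0.14, 95% interval -0.29 to 0.00).

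Zfp809 and Zfp277 did not go the same way in the 3 lines. Zfp809 was 1.75-fold lower in KO and 1.37-fold lower in 4XKO EpiLC but 1.39-fold higher in 3XKO EpiLC. Zfp277 was 1.69-fold and 1.61-fold higher in KO and 4XKO and 1.22-fold lower in 3XKO, where the call was lost without 3XKO EpiLC replicate 3 (adjusted p = 0.0666). Zfp36l1 was 1.3-fold higher in 3XKO EpiLC. Of the 17 KRAB cofactors, 3 were higher and 1 lower in KO EpiLC, 4 and 0 in 3XKO, and 5 and 2 in 4XKO. The shares of all genes over 100 were 26.6% and 23.5%, 23.2% and 21.3%, and 24.4% and 20.9%.

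**Figure D4:**
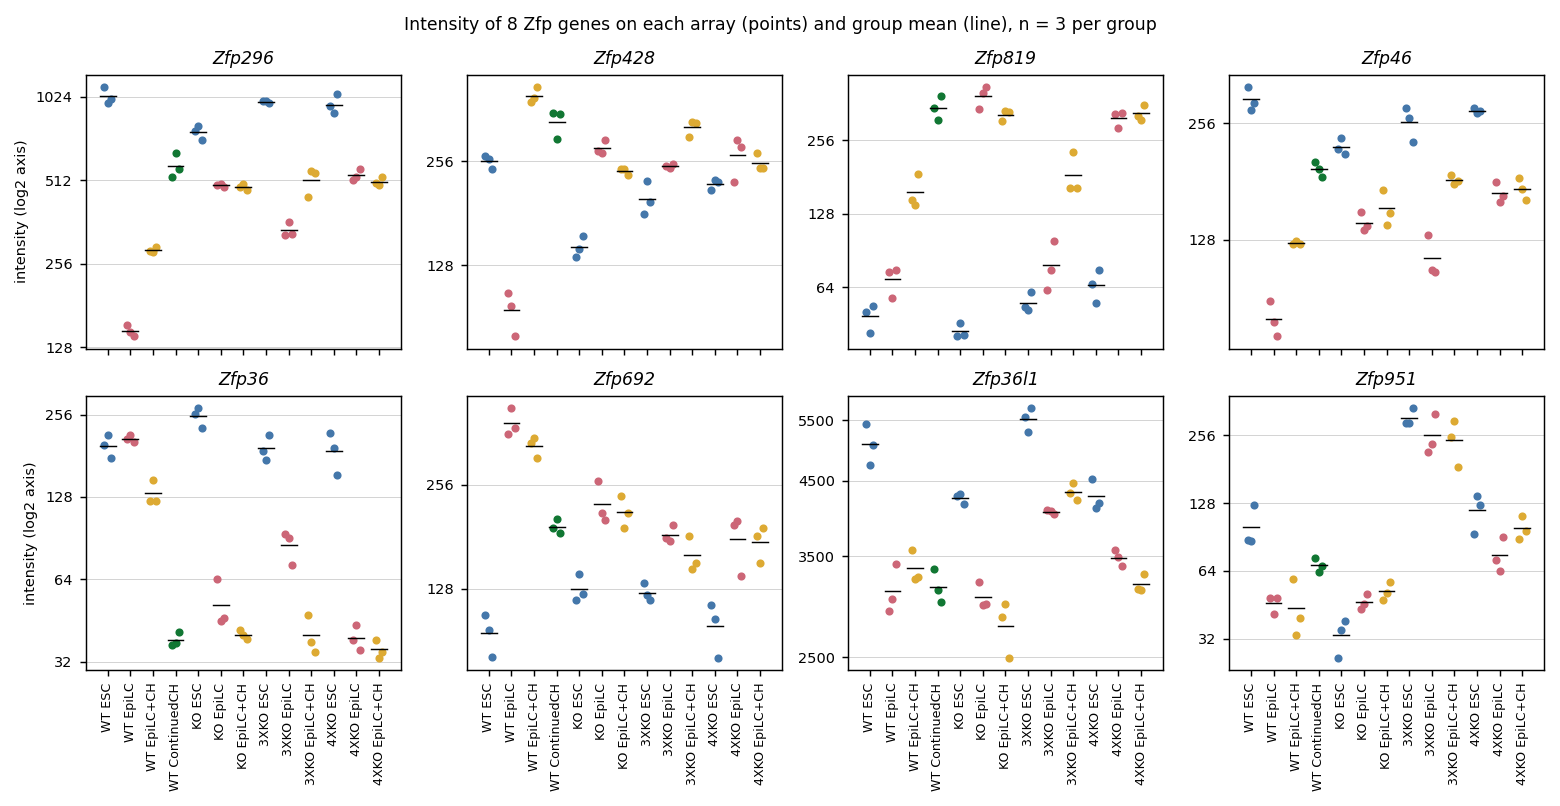
Intensity (vertical, log2 axis) of 8 Zfp genes on each array (points) in 13 groups (horizontal), with the group mean as a line. Zfp296, Zfp428 and Zfp46 have their lowest group in WT EpiLC, and the 6 KO and 4XKO EpiLC arrays lie above WT EpiLC for Zfp819 and below it for Zfp36.

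The transition itself was compared between lines by testing the difference of the EpiLC minus ESC changes, with the WT arrays shared. More positive changes than in WT were called for 18 Zfp genes in KO, 18 in 3XKO and 17 in 4XKO (21.9%, 13.9% and 17.6% of genes over 100). More negative ones were called for 8, 6 and 11 (18.8%, 12.7% and 16.3%). The genes with a more positive change in 4XKO include Zfp280b, which passed the limit through the 4XKO arrays. Zfp428 fell in WT, whereas its mean rose from 144 ± 10.4 to 279 ± 13.2 in KO cells, a difference of 2.39 ± 0.14 on the log2 scale (adjusted p = 1.66e-13). The fall of Zfp296 was smaller in all 3 knockout lines, by 2.17 ± 0.11 in KO, 1.27 ± 0.11 in 3XKO and 1.97 ± 0.11 in 4XKO. Zfp36 changed by -2.39 ± 0.20, -1.27 ± 0.20 and -2.36 ± 0.20 relative to WT.

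In ESC, 4 Zfp genes were higher than in WT and 20 lower in KO (12.6% and 13.7% of genes over 100), 10 and 14 in 3XKO (17.2% and 16.2%), and 1 and 5 in 4XKO (8.32% and 6.43%). With the spread of the compared arrays alone these totals became 10, 14 and 0, and the 4XKO total became 2 without WT ESC replicate 1 and 3 without WT ESC replicate 2 or 3 or 4XKO ESC replicate 2. The genes higher in 3XKO include Zfp951 and Zfp607a, which passed the limit through the 3XKO arrays. Those lower in KO include Zfp94, which passed the limit through the WT arrays. In KO ESC the median log2 difference of the 73 genes was -0.18, against 0.00 for all genes over 100. Zfp532 (1.77-fold), Zfp428 (1.77-fold), Zfp362 (1.65-fold) and Zfp574 (1.44-fold) were lower in KO ESC.

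Zfp951 differed from WT in KO and 3XKO ESC. It read 87.5, 86.7 and 126 in WT ESC, 26.4, 35.1 and 38.4 in KO ESC, 290.3, 291 and 337 in 3XKO ESC and 93.7, 137 and 126 in 4XKO ESC. The KO and 3XKO arrays did not overlap the WT arrays, whereas the 4XKO arrays did. The gene was 2.99-fold lower in KO (adjusted p = 2.96e-06). It stood 3.1-fold over WT in 3XKO ESC and 5.49-fold over WT in 3XKO EpiLC, given as a description because the gene passed the limit through the 3XKO arrays (its other group means were 33.3 to 118.9). Zfp763 was lower in 3XKO in both states, at 148, 126 and 139 against 228, 309 and 284 in ESC (1.98-fold) and 1.81-fold lower in EpiLC.

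Some line differences lay on chromosomes whose other genes were shifted too. In 3XKO cells the median log2 difference of the 243 chromosome 1 genes over 100 was 0.50 in ESC and 0.50 in EpiLC, and both Zfp genes there were higher in ESC, Zfp281 1.85-fold and Zfp451, a SUMO ligase, 1.49-fold (a call lost without WT ESC replicate 1 or 2 or 3XKO ESC replicate 3, adjusted p up to 0.0686). In 3XKO EpiLC Zfp281 was 1.95-fold higher, whereas Zfp451 was not called (log2 difference 0.33, 95% interval -0.01 to 0.67). The 260 chromosome 6 genes had a median of -0.21 in 3XKO ESC and -0.24 in 3XKO EpiLC, where Zfp282 was 1.65-fold and 1.57-fold lower and Zfp637 1.58-fold and 1.5-fold lower. Zfp239 (a call lost with the spread of the compared arrays alone) and Zfp212 were lower in 3XKO ESC but not called in 3XKO EpiLC. Zfp638 was called in neither (log2 difference 0.01 and 0.21). Zfp282 was also lower in 4XKO, 1.35-fold in ESC (a call lost with that spread, adjusted p = 0.0531) and 1.54-fold in EpiLC. In KO cells chromosome 6 had a median of 0.18 in ESC and 0.19 in EpiLC, and Zfp637 and Zfp239 were 1.39-fold and 1.38-fold higher in ESC. In KO EpiLC neither was called (adjusted p = 1 and 0.705). Of the other chromosome 6 Zfp genes, named here after their values were seen, Zfp212 was 1.26-fold higher in KO EpiLC. Zfp282 went against the median, 1.2-fold lower in KO ESC and 1.2-fold lower in KO EpiLC. The part of these shifts in the results was not tested. Chromosome 7 medians lay between -0.03 and 0.03 in the 6 comparisons, and chromosome 5, which holds Zfp951, had -0.02 in KO ESC and 0.04 in 3XKO ESC.

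**Figure D5:**
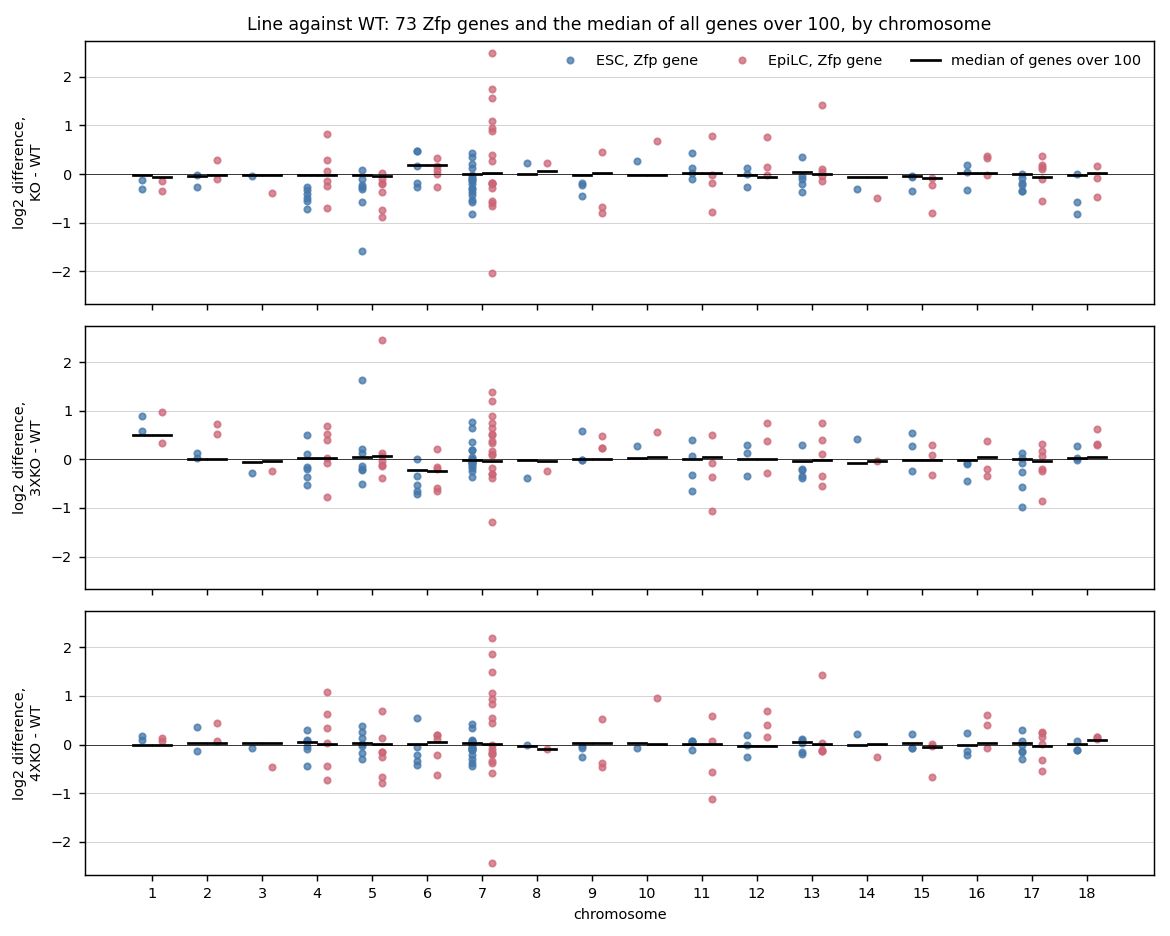
Log2 difference between each knockout line and WT (vertical axis) for the 73 Zfp genes (points) by chromosome (horizontal axis), in ESC and EpiLC, with the median of all genes over 100 as black bars. The bars of chromosome 1 stand at 0.50 in 3XKO, and those of chromosome 6 at 0.18 and 0.19 in KO and at -0.21 and -0.24 in 3XKO.

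Exposure to CHIR99021 together with Fgf2 was then compared with untreated EpiLC and with the 24 hour treatment. In WT ContinuedCH, 22 Zfp genes were higher and 13 lower than in WT EpiLC (23.7% and 18.9% of genes over 100), and 17 and 9 against EpiLC+CH (22.2% and 16.4%). Among the 13 is Zfp94, which passed the limit through the WT arrays. Zfp819 read 346, 310.2 and 386 under continued CHIR99021, 5.05-fold over EpiLC and 2.23-fold over EpiLC+CH. Zfp296 read 527, 644 and 564, 3.94-fold over EpiLC and 2.01-fold over EpiLC+CH. Zfp36 was down to 36.7, 37.5 and 41.2, 5.45-fold under EpiLC and 3.42-fold under EpiLC+CH. None of the arrays of these 3 groups overlapped for these 3 genes.

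Zfp428 showed no further rise, with 352, 297 and 349.5 in ContinuedCH, 3.52-fold over EpiLC but under the 396 of EpiLC+CH (log2 difference -0.25, 95% interval -0.46 to -0.05, adjusted p = 0.0865). Zfp553 and Zfp715, which were not called after 24 hours, were 2.39-fold and 2.32-fold over EpiLC in ContinuedCH. Zfp46 (2.45-fold), Zfp459 (2.41-fold) and Zfp710 (1.87-fold) were higher as well. Zfp692 (1.99-fold), Zfp362 (1.9-fold), Zfp512 (1.79-fold), Zfp607a (1.76-fold) and Zfp644 (1.46-fold) were lower. Fgf5 was 22.7 in ContinuedCH against 880.5 in EpiLC, so this EpiLC marker was lower along with them.

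In the separate set, where CHIR99021 was added to LIF+PD, 0 Zfp genes rose and 1 fell (0.315% and 0.275% of genes over 100). The fall was that of Zfp710, from 1469, 1407 and 1451 to 1139.9, 1114 and 1139.5 (1.28-fold, adjusted p = 0.0435). It was lost under 4 of the alternative settings and without each single array (adjusted p up to 0.112). Zfp428 read 2562, 2512 and 1713 before and 2541, 2989 and 3004 after (log2 difference 0.35, 95% interval -0.16 to 0.86), and Zfp296 read 2512, 2841 and 1959 before and 1756, 2185 and 2301 after (log2 difference -0.22, 95% interval -0.72 to 0.27).

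Across the 13 group means of log2 values, the family did not move as one. The 2628 pairs of Zfp genes had a median Pearson r of 0.03, with 15 pairs over 0.9 and 16 under -0.9, and these are descriptions over 13 groups that share lines and media. The closest pair was Zfp296 and Zfp46 (r = 0.98), on chromosomes 7 and 4, and Zfp654 and Zfp46 had r = 0.95. The pattern of Zfp36 was nearly the mirror image of that of Zfp819 (r = -0.93), and Zfp512 and Zfp715 were the most opposed pair (r = -0.97). Zfp428 had no close companion, its nearest gene being Zfp446 (r = 0.65). Over the 20 comparisons, 66 of the 73 genes were called at least once, with a median of 5 comparisons per gene and a maximum of 15 for Zfp428. The 7 genes called in none, named here after their values were seen, were Zfp251, Zfp280d, Zfp318, Zfp472, Zfp638, Zfp747 and Zfp979. Counts of this kind are not given for the 5084 background genes, and many of the comparisons share arrays. In the WT transition alone, 34.9% of the background genes rose and 31.5% fell. The number of Zfp genes called at least once is therefore a description and does not set the family apart.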

How the data were processed

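The authors deposited background-subtracted, quantile-normalized linear intensities of 25697 Illumina probes on 47 arrays, in 2 sets (39 and 8 arrays) normalized separately, per the file headers and labels. The submitters' processing notes name lumi and limma. Scanner data and detection p-values were not used here. Deposited intensities under 1 were set to 1, taken to log2 and quantile-normalized again within each set. Groups were fitted in limma 3.58.1 (R 4.3.3) with a means model over all arrays of a set. Calls were adjusted by Benjamini-Hochberg over all probes at 0.05. The fit was also run on simulated data with independent noise, which cannot show effects shared between arrays. Levels in the text are deposited intensities, and levels of different genes were not tested against each other. Folds come from the fitted log2 differences. Python 3.11.15, pandas 2.3.3 and matplotlib 3.10.9 served for summaries and figures.

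The Zfp genes, role lists and tests were chosen with earlier results of these data known. Named genes are those called with the largest differences (up to 12 in each direction for the WT transition and WT CHIR99021 response, up to 8 otherwise) and those on the role lists. The labels call the arrays of a group biological triplicates. The deposited normalization scaled every array to 1 distribution, so a shift of all genes together cannot be seen, and the number of arrays limits the precision. Deviations of same-numbered replicates from their group means correlated at -0.476 to 0.531. Every pair exceeded 0.1 in 3 of 14 comparisons (the WT response, KO against WT in ESC and 4XKO against WT in EpiLC), which were also fitted with a replicate block in the compared groups. This pairing comes from the data, not from the labels. Alternative fits used the compared groups alone, a replicate block, cyclic loess, the deposited values without renormalizing, a higher floor (the background limit), eBayes with trend and robust, all but the dimmest 33.3% of probes, KO EpiLC replicates 2 and 3 averaged, and leaving out each array.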

Additional observations from a re-analysis of the deposited data

Results flagged for a closer look

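The transition from ESC to EpiLC and the response to CHIR99021 differed between the knockout lines and WT for the genes below. Each difference was tested as an interaction contrast in limma (adjusted p under 0.05 over all probes), and all of them share the WT arrays. Values are log2 differences of the change in the knockout line minus the change in WT.

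In KO cells the transition of 26 Zfp genes differed (18 more positive and 8 more negative, against 21.9% and 18.8% of genes over 100). It was more positive for Zfp819 (2.69), Zfp428 (2.39), Zfp296 (2.17), Zfp459 (1.78), Zfp951 (1.60), Zfp46 (1.24), Zfp710 (1.23), Zfp446 (1.02) and Zfp277 (0.64). It was more negative for Zfp36 (-2.39), Zfp692 (-1.21), Zfp512 (-0.84), Zfp644 (-0.79), Zfp688 (-0.72), Zfp637 (-0.48), Zfp623 (-0.47) and Zfp809 (-0.36), the last of which lost its call when some single array was left out (adjusted p up to 0.0614).

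In 3XKO cells the transition of 24 Zfp genes differed (18 more positive and 6 more negative, against 13.9% and 12.7% of genes over 100). It was more positive for Zfp428 (1.75), Zfp296 (1.27), Zfp207 (1.15), Zfp943 (0.90), Zfp446 (0.84), Zfp715 (0.84), Zfp654 (0.82), Zfp553 (0.75), Zfp459 (0.61), Zfp131 (0.51), Zfp809 (0.49) and Zfp410 (0.47). It was more negative for Zfp692 (-1.47), Zfp36 (-1.27), Zfp688 (-0.82), Zfp512 (-0.52), Zfp219 (-0.47) and Zfp41 (-0.45). In a fit on the compared groups only, the calls of Zfp943 (adjusted p = 0.0544), Zfp715 (0.103), Zfp41 (0.0995), Zfp459 (0.141) and Zfp410 (0.0624) were lost. Those of Zfp131, Zfp41, Zfp410, Zfp446 and Zfp459 were lost when some single array was left out (adjusted p up to 0.103).

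In 4XKO cells the transition of 28 Zfp genes differed (17 more positive and 11 more negative, against 17.6% and 16.3% of genes over 100). It was more positive for Zfp296 (1.97), Zfp819 (1.77), Zfp428 (1.70), Zfp459 (1.61), Zfp46 (1.18), Zfp292 (1.05), Zfp280b (1.03), Zfp710 (1.01), Zfp277 (0.70) and Zfp36l1 (0.41). It was more negative for Zfp36 (-2.36), Zfp692 (-1.19), Zfp644 (-0.81), Zfp362 (-0.79), Zfp512 (-0.77), Zfp2 (-0.62), Zfp623 (-0.60), Zfp326 (-0.52) and Zfp219 (-0.48). The calls of Zfp2 and Zfp326 were lost when some single array was left out (adjusted p up to 0.0598). Zfp280b passed the limit of mean intensity through the 4XKO arrays. Its value is therefore given as a description, although the gene stays in the count of 17.

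The response to CHIR99021 differed for 5 Zfp genes in KO: Zfp428 (-2.29), Zfp819 (-1.43), Zfp296 (-0.99), Zfp459 (-0.73) and Zfp46 (-0.54). It differed for 1 in 3XKO, Zfp428 (-1.70). It differed for 7 in 4XKO: Zfp428 (-2.13), Zfp819 (-1.11), Zfp296 (-1.05), Zfp292 (-0.96), Zfp46 (-0.62), Zfp787 (-0.48) and, in the other direction, Zfp2 (0.86). Among genes over 100, 1.97% and 3.76% had a more positive and a more negative response in KO. The shares were 0.944% and 1% in 3XKO and 4.07% and 6.63% in 4XKO. The calls of Zfp292 and Zfp787 in 4XKO and of Zfp459 and Zfp46 in KO were lost when some single array was left out (adjusted p up to 0.115) and with the compared groups alone (adjusted p up to 0.148).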

How the results depend on the processing

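No result changed direction. Of 275 named gene results, 219 kept their call whichever array was left out and 56 lost it at least once. Cyclic loess lost 3, eBayes with trend and robust 5, the replicate block 3, removal of the dimmest 33.3% of probes 1, a floor at the background limit 1, averaging KO EpiLC replicates 2 and 3 lost 2 of 274, and dropping the second normalization 0. Taking the spread from the compared groups alone, with fewer arrays, lost 71. The number of Zfp genes called then became 7 (WT), 0 (KO), 3 (3XKO) and 1 (4XKO) for the CHIR99021 responses, 3 for the KO response difference, 10 (KO), 14 (3XKO) and 0 (4XKO) for ESC against WT, 24 for 3XKO EpiLC and 16 for ContinuedCH against EpiLC+CH. In LIF+PD the count became 0 under cyclic loess, the replicate block, removal of the dimmest probes and the higher floor; the cause was not tested.

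Leaving out single arrays gave 48 to 50 calls for the WT transition, and 25 to 29 (KO), 21 to 24 (3XKO) and 25 to 28 (4XKO) for its differences. The responses gave 10 to 14 (WT), 0 to 1 (KO), 12 to 16 (3XKO) and 1 to 3 (4XKO), and their differences 4 to 6, 1 to 1 and 5 to 8. Against WT, ESC gave 18 to 23, 20 to 25 and 2 to 5 and EpiLC 30 to 36, 32 to 36 and 33 to 35. ContinuedCH gave 30 to 32 against EpiLC and 21 to 26 against EpiLC+CH, and LIF+PD 0 to 1. With the replicate number as a block, the WT transition had 50 calls, the WT response 15, KO ESC 27 and 3XKO EpiLC 40; a block fitted in the compared groups only, chosen after seeing the data, gave 15 for the WT response, 24 for KO ESC and 36 for 4XKO EpiLC, and 50 of 50 named calls kept their side of the threshold in these paired comparisons. Dim genes, within a few times the background limit of 13.6, carry the least certain folds.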

Other observations

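Zfp428 stood apart between the separately normalized sets. It read 2562, 2512 and 1713 in LIF+PD and 2541, 2989 and 3004 in LIF+PD+24hrCH, against 265, 259 and 242 in WT ESC of the larger set. The ratio of the LIF+PD+24hrCH mean to the WT ESC mean was 11.1 for Zfp428, 3.57 for the next gene, Zfp787, and 0.532 at the median of the Zfp genes. Zfp763 had the lowest ratio, 0.0173, but its LIF+PD+24hrCH mean of 4.73 lay under the background limit of 14.3 of that set. No test was made across the sets, and set and condition cannot be told apart.

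The conditions with 1 array each gave values without a replicate check. Zfp428 read 1166 in LIF+CHIR and 3494 in PD+CHIR. Zfp819 read 179 and 399, and Zfp36 read 219 and 102, in the same order. In this set LIF+PD replicate 3 correlated best with an array of LIF+PD+24hrCH (r = 0.984), so these conditions did not separate fully.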
